A study of Mus musculus with 15 samples.

Results

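Hearts of mouse embryos heterozygous for the H355Q allele of Adamts16 were compared with WT hearts at E14.5 across 15172 genes, those of the 55335 in the deposited table with a mean of at least 0.5 FPKM over all 15 libraries. FPKM counts fragments per kilobase of a gene and 1e+06 sequenced fragments. The comparison rests on 4 libraries of genotype Adamts16+/H355Q and 7 of genotype WT. A further 4 libraries of genotype Adamts16+/-, titled Ko by the submitters, entered the same fit and are given beside the named genes. All libraries are labelled as heart, with no part named and no cells sorted, and no strain, sex, litter or treatment is given in the labels. Whether a library holds 1 heart or a pool is not stated, so n counts libraries and p-values measure only the spread between them, which may be partly technical. The series concerns valve malformation and disorganised extracellular matrix in mice with altered Adamts16.

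ADAMTS16 is a secreted zinc metalloprotease of the ADAMTS family, named for a disintegrin-like part and thrombospondin motifs beside the catalytic part. Enzymes of this family cut proteoglycans, collagen precursors and adhesive glycoproteins outside the cell. In the embryonic heart the valve cushions are first filled with hyaluronan and proteoglycans and are later remodelled into thin layered leaflets of collagen, proteoglycan and elastic fibres. T-box, GATA and NK2 transcription factors direct the formation of chambers, septa and valves in the same period.

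The position named by the allele could be placed on the annotated transcript. In GENCODE vM21 (build GRCm38), the codon that H355Q names, among the 1222 codons of Adamts16, reads CAT, which encodes histidine, as the allele name requires. It lies at chr13:70793202-70793204 on the minus strand, in exon 7 of 23, inside a gene that spans chr13:70727802-70841811. The first HEXXH motif, the zinc-binding signature of such metalloproteases, starts at codon 431, downstream of the altered position. The reference codon is shown in capitals with 30 bases of coding sequence on each side, from exons 6 and 7, because it is the site that separates the compared genotypes:
Adamts16 H355Q codon: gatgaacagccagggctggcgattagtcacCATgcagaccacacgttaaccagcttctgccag

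Adamts16 RNA was low in every library and lay below the filter on low values. Its level was 0.0677, 0.123, 0.125 and 0.101 FPKM in the Adamts16+/H355Q libraries, 0.0635 to 0.235 FPKM in the Adamts16+/- libraries, and 0.0324 to 0.235 FPKM, with a median of 0.0647 FPKM, in WT. All 4 Adamts16+/H355Q values fell inside the WT range. The mean was 0.104 ± 0.0267 FPKM in Adamts16+/H355Q (SD, n = 4) and 0.106 ± 0.0758 FPKM in WT (SD, n = 7). Their difference on the log2(FPKM + 0.5) scale had p = 0.976 in an exact permutation test (two-sided) over 330 regroupings. The 95% limma interval of the log2 difference ran from -0.24 to 0.25. On this scale a halving of the WT level would be a difference of only -0.13, which lies inside that interval. Against WT libraries 1 to 4 alone the difference was 0.13, and against WT libraries 5 to 7 alone -0.17 (exact permutation p = 0.0286 for each). In each comparison the groups did not overlap, so that value is the smallest p that its regroupings allow. This split of WT was chosen after seeing the data. These p-values are therefore a description, and the sign was set by which WT libraries were used. A table of gene levels does not show which allele was transcribed, so it does not check the H355Q label.

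The WT libraries stood apart from each other. On the main axis of a principal component analysis (27.6% of the variance) Adamts16+/H355Q scored 8.5 to 23.1 and Adamts16+/- scored -18.7 to -11.8. WT scored -19.6 to -12.2 in libraries 1 to 4 and 8.0 to 36.1 in libraries 5 to 7. No label separates these WT libraries, and what sets them apart was not tested. Depth estimated from the steps between low values, in units of 1e+06 fragments, was 50.4 to 58.3 in Adamts16+/H355Q, 37.3 to 48 in Adamts16+/- and 41.7 to 55.2 in WT. The labelled tissue was checked with 13 cardiomyocyte markers, which summed to 8942 to 11200 FPKM in Adamts16+/H355Q and 9226 to 11670 FPKM in WT. Markers of lung epithelium summed to 30.5 to 38.7 FPKM in Adamts16+/H355Q and 31.3 to 127 FPKM in WT, with the highest value in WT library 7. Thymus markers summed to 1.78 to 25.8 FPKM in Adamts16+/H355Q, highest in library 2, and to 1.74 to 30.2 FPKM in WT, highest in library 7. Liver markers summed to 9.91 to 33.9 FPKM in Adamts16+/H355Q, 5.84 to 17.2 FPKM in WT libraries 1 to 4 and 35.0 to 51.2 FPKM in WT libraries 5 to 7. For skeletal muscle markers these ranges were 148 to 280, 160 to 211 and 277 to 386 FPKM. Adamts16+/H355Q libraries 1 and 3 held both Xist (32.8 and 47.5 FPKM) and the Y-linked gene Ddx3y (7.42 and 9.40 FPKM), library 2 held Xist at 99.7 FPKM with Ddx3y listed at 0, and library 4 held Ddx3y at 19.4 FPKM with Xist at 0.0425 FPKM.

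Across the transcriptome, the matrix genes Col6a2, Bgn and Fndc1, the transcription factor Tbx5 and the endothelial gene Vwf fell in Adamts16+/H355Q hearts, while Hmgn2, Pgk1, Nadk and Prps1 rose. With limma and Benjamini-Hochberg adjustment over all 15172 genes, 57 genes were called at an adjusted p under 0.05, which is 0.376%. Of these, 18 were higher (0.119%) and 39 lower (0.257%). With TPM scaling 20 were higher and 22 lower. At an unadjusted p under 0.05 there were 2771 genes (18.3%), 1533 higher and 1238 lower, and the median log2 difference over all genes tested was 0.02. In 53 of the 57 called genes the Adamts16+/H355Q and WT libraries did not overlap, a separation found in 2.65% of all genes tested (402 genes, 131 higher and 271 lower). Against WT libraries 1 to 4 alone 3262 genes were called, with all 57 among them. Against WT libraries 5 to 7 alone 20 were called, with 9 of the 57 among them. The count also moved by more than 1.5 times without Adamts16+/H355Q replicate 3 (21) or 4 (21), Adamts16+/- replicate 1 (37) or WT replicate 2 (22), 3 (25) or 7 (1414). All 57 kept their sign under every alternative tried, and 17 were called in each of the 15 fits that left out 1 library. These genes were selected in the same libraries, so a kept sign is not further support.

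In bulk tissue, fewer cells of a type and less RNA per cell cannot be told apart, which holds for each gene below. Adamts16+/H355Q against Adamts16+/- called 1524 genes (10%, 657 higher and 867 lower) and Adamts16+/- against WT 417 genes (2.75%). Both comparisons share libraries with that of Adamts16+/H355Q against WT, so their values stand beside it and are not further support.

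Tbx5, a T-box transcription factor required for atria, septa and the conduction system, fell in Adamts16+/H355Q hearts. The gene lies at chr5:119832668-119885219 in GRCm38. It was at 8.76, 8.21, 9.16 and 7.80 FPKM in the 4 Adamts16+/H355Q libraries, at 13.4, 13.9, 17.5 and 13.7 FPKM in the Adamts16+/- libraries, and at 11.7 to 15.5 FPKM with a median of 13.4 FPKM in WT. Every Adamts16+/H355Q library lay below every library of the other genotypes. The log2 difference from WT was -0.63 ± 0.09 (SE; limma adjusted p = 0.00791), so that the mean was 62.9% of WT, and the difference from Adamts16+/- was -0.74 (limma adjusted p = 0.00807). Tbx5 was called in every fit that left out 1 library, with adjusted p between 0.00185 and 0.0458. Against WT libraries 5 to 7 alone its difference was -0.47 (limma adjusted p = 0.0808). Of 27 cardiac transcription factors tested, Tbx5 was the 1 called and 6 had an unadjusted p under 0.05. Over all genes tested these shares were 0.376% and 18.3%. A negative difference was found in 21 of the 27, and the median was -0.17 against 0.02 over all genes. That median was -0.24 against WT libraries 1 to 4 alone and -0.01 against WT libraries 5 to 7 alone. Nr2f2, an orphan nuclear receptor of atrial muscle and veins, was at 2.41, 2.55, 3.69 and 2.80 FPKM in Adamts16+/H355Q and at 3.47 to 4.98 FPKM in WT (log2 difference -0.52, limma adjusted p = 0.0648). Irx5, an Iroquois factor, was at 1.51 to 1.79 FPKM in Adamts16+/H355Q and at 1.63 to 2.5 FPKM in WT (limma adjusted p = 0.121). Sox9, a factor of valve mesenchyme and cartilage, was at 2.43 ± 0.48 FPKM in Adamts16+/H355Q (SD, n = 4) and 2.54 ± 0.338 FPKM in WT (SD, n = 7), with a log2 difference of -0.06 (limma adjusted p = 0.85).

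Among the structural proteins of the matrix, Col6a2, Bgn and Fndc1 fell. Col6a2 encodes a chain of collagen VI, which forms beaded filaments around cells. It was at 10.9, 12.1, 10.5 and 8.14 FPKM in Adamts16+/H355Q, at 11 to 16.5 FPKM in Adamts16+/-, and at 13.9 to 18.6 FPKM with a median of 16 FPKM in WT. The Adamts16+/H355Q libraries lay below all WT libraries and reached into the Adamts16+/- range. The log2 difference from WT was -0.60 ± 0.12 (SE; limma adjusted p = 0.0422), and the difference from Adamts16+/- of -0.28 was not called (limma adjusted p = 0.18). Its partner chain Col6a1 was at 22.3, 27.0, 24.0 and 20.1 FPKM in Adamts16+/H355Q and at 28.9 to 38.4 FPKM in WT. These groups did not overlap either, although the difference of -0.50 was not called (limma adjusted p = 0.0739).

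Bgn, on chromosome X, encodes biglycan, a small leucine-rich proteoglycan that binds collagen fibrils. It was at 20.1, 18.9, 19.3 and 19.5 FPKM in Adamts16+/H355Q, at 22.7 to 33.4 FPKM in Adamts16+/-, and at 24.1 to 29.1 FPKM with a median of 26.2 FPKM in WT. The Adamts16+/H355Q libraries were close to each other and below every other library. The log2 difference was -0.43 ± 0.08 from WT (SE; limma adjusted p = 0.0422) and -0.50 from Adamts16+/- (limma adjusted p = 0.0117). Fndc1 encodes a protein with fibronectin type III domains. It was at 2.06, 2.59, 1.79 and 1.51 FPKM in Adamts16+/H355Q, at 1.91 to 2.28 FPKM in Adamts16+/-, and at 2.88 to 4.62 FPKM with a median of 3.78 FPKM in WT. Here both mutant genotypes lay below WT and overlapped each other. Its difference from WT, -0.78 ± 0.13 (log2, SE; limma adjusted p = 0.0199), was the largest among the named lower genes, and its difference from Adamts16+/- was -0.04 (limma adjusted p = 0.882).

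Which libraries were included set the calls of these matrix genes. Col6a2 kept its call in 5 of the 15 fits without 1 library, those without Adamts16+/H355Q replicate 2, Adamts16+/- replicate 2 or WT replicate 1, 4 or 7, with adjusted p up to 0.188 in the others. Bgn kept it in 4, those without Adamts16+/- replicate 2 or 4 or WT replicate 1 or 7, with adjusted p up to 0.145 in the others. Fndc1 lost its call without Adamts16+/H355Q replicate 3 or 4 or WT replicate 3 (adjusted p up to 0.108), and it was called against WT libraries 5 to 7 alone (-0.97, limma adjusted p = 0.0304).

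As groups, most matrix genes had negative differences, where the median over all genes tested was 0.02. Over all genes 0.376% were called and 18.3% had an unadjusted p under 0.05, the shares to set beside the list counts below. Of 25 collagen chain genes tested, 21 were negative and 1, Col6a2, was called, with a median of -0.25, or -0.13 against WT libraries 5 to 7 alone. At an unadjusted p under 0.05 there were 9 of the 25, all lower. Summed over the list, collagens reached 483 to 578 FPKM in Adamts16+/H355Q, 543 to 717 FPKM in Adamts16+/- and 601 to 757 FPKM in WT, so that all Adamts16+/H355Q libraries lay below all WT libraries. Col1a1, a chain of the fibrillar collagen I, was at 82.6, 78.7, 95.8 and 64.4 FPKM in Adamts16+/H355Q and at 95.6 to 142 FPKM in WT (log2 difference -0.54, limma adjusted p = 0.0739). Of 35 matrix glycoprotein genes 29 were negative and 13 had an unadjusted p under 0.05, all of these lower. The list had a median of -0.15 and 1 called gene, Fndc1. The summed level of the list was 867 to 948 FPKM in Adamts16+/H355Q, 1043 to 1160 FPKM in Adamts16+/- and 1016 to 1180 FPKM in WT, again without overlap. Sparc, a collagen-binding glycoprotein, was at 241, 204, 223 and 200 FPKM in Adamts16+/H355Q and at 248 to 318 FPKM in WT, and Smoc1, a related secreted protein, was at 2.92 to 3.62 FPKM in Adamts16+/H355Q and 3.80 to 5.42 FPKM in WT. Neither was called (limma adjusted p = 0.0735 and 0.0561), although neither overlapped.

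Fn1, which encodes fibronectin, moved with the split of the WT libraries. It was at 62.4, 59.8, 78.7 and 79.3 FPKM in Adamts16+/H355Q, at 117 to 138 FPKM in Adamts16+/-, and in WT at 108 to 113 FPKM in libraries 1 to 4 but 57.1 to 74.7 FPKM in libraries 5 to 7. The log2 difference from WT was -0.33 ± 0.18 (SE; limma adjusted p = 0.352) and from Adamts16+/- -0.85 (limma adjusted p = 0.0238). Against WT libraries 1 to 4 alone the difference was -0.65 and was called (limma adjusted p = 0.000694), and against WT libraries 5 to 7 alone it was 0.11 (limma adjusted p = 0.783).

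Of 19 proteoglycan and hyaluronan genes Bgn was called, with a median of -0.17 for the list, which was -0.05 against WT libraries 1 to 4 alone and -0.08 against WT libraries 5 to 7 alone. In this list 6 genes had an unadjusted p under 0.05, 4 of them lower. Fmod, the proteoglycan fibromodulin, was at 5.53 to 8.09 FPKM in Adamts16+/H355Q and 8 to 15.1 FPKM in WT (limma adjusted p = 0.0813). Over all genes tested 18.3% had an unadjusted p under 0.05, the share to set beside the counts that follow. Laminin and basement membrane genes, with 0 of 15 called by limma and 3 at an unadjusted p under 0.05, had a median of -0.14. That median was 0.05 against WT libraries 5 to 7 alone. Elastic fibre genes, with 0 of 16 called and 3 at an unadjusted p under 0.05, had a median of -0.09, or -0.31 against WT libraries 5 to 7 alone. Among them Ltbp4, a TGF-beta binding protein of microfibrils, was at 10.6 to 11.5 FPKM in Adamts16+/H355Q and 12 to 15.6 FPKM in WT, without overlap and without a call (limma adjusted p = 0.107). The same group medians in Adamts16+/- against WT, which uses the same WT libraries, were 0.11 for collagens, 0.05 for matrix glycoproteins and 0.06 for proteoglycans.

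**Figure D1:**
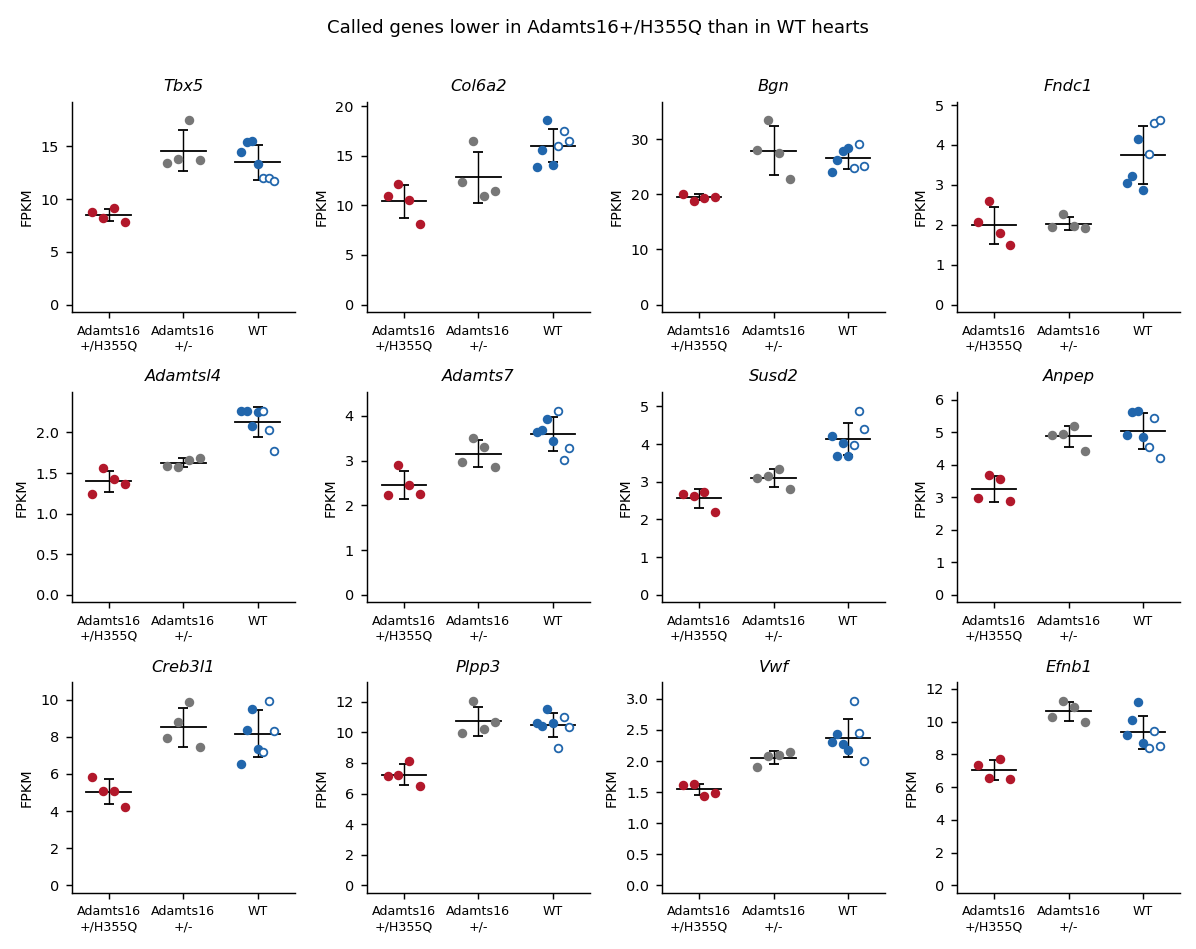
FPKM of 12 called genes that were lower in Adamts16+/H355Q than in WT hearts, 1 point per library, with the mean (line) and SD (bars) of each genotype; open circles are WT libraries 5 to 7. In each panel the 4 Adamts16+/H355Q libraries lie below all 7 WT libraries, while the Adamts16+/- libraries lie beside WT for Tbx5, Bgn and Plpp3 and beside Adamts16+/H355Q for Fndc1.

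The lower genes also included Adamts7, Adamtsl4, Anpep and Trabd2b. Adamts7 encodes a secreted protease of the same family as ADAMTS16 that degrades cartilage oligomeric matrix protein. It was at 2.23, 2.89, 2.46 and 2.25 FPKM in Adamts16+/H355Q, at 2.85 to 3.51 FPKM in Adamts16+/-, and at 3 to 4.12 FPKM with a median of 3.65 FPKM in WT. Adamtsl4 encodes a family member without a protease domain that binds fibrillin microfibrils. It was at 1.24, 1.56, 1.43 and 1.36 FPKM in Adamts16+/H355Q, at 1.58 to 1.68 FPKM in Adamts16+/-, and at 1.78 to 2.27 FPKM with a median of 2.25 FPKM in WT. For both genes every Adamts16+/H355Q library lay below every WT library. The log2 difference from WT was -0.47 ± 0.09 for Adamts7 (SE; limma adjusted p = 0.0282) and -0.47 ± 0.07 for Adamtsl4 (SE; limma adjusted p = 0.0069). Adamtsl4 was also called in Adamts16+/- against WT (-0.31, limma adjusted p = 0.0316).

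Adamtsl4 was called in every fit that left out 1 library. Adamts7 was called in 8 of 15, and it lost its call without Adamts16+/H355Q replicate 1, 3 or 4 or WT replicate 1, 2, 3 or 5, with adjusted p up to 0.145. Of 20 ADAMTS family genes tested these were the 2 called, 12 were negative, and the median was -0.11, or -0.02 against WT libraries 5 to 7 alone. In this list 4 genes had an unadjusted p under 0.05, all lower. Over all genes tested 0.376% were called and 18.3% had such a p. Adamts17, a family member linked to fibrillin in other tissues, was at 1.67 to 1.83 FPKM in Adamts16+/H355Q and 1.97 to 2.46 FPKM in WT, without overlap and without a call (limma adjusted p = 0.202).

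Anpep, the membrane-bound aminopeptidase N that trims peptides at the cell surface, was at 2.97, 3.68, 3.55 and 2.88 FPKM in Adamts16+/H355Q, at 4.43 to 5.2 FPKM in Adamts16+/-, and at 4.22 to 5.67 FPKM with a median of 4.92 FPKM in WT. All Adamts16+/H355Q libraries were lower than all others, with a log2 difference from WT of -0.56 ± 0.09 (SE; limma adjusted p = 0.00955). The call of Anpep was lost without Adamts16+/H355Q replicate 4 (limma adjusted p = 0.0572). Trabd2b encodes a membrane metalloprotease that inactivates Wnt ligands. It fell by 0.57 on the log2 scale, at 1.20 ± 0.217 FPKM in Adamts16+/H355Q (SD, n = 4) and 2.01 ± 0.183 FPKM in WT (SD, n = 7; limma adjusted p = 0.0227). The call was lost without Adamts16+/H355Q replicate 1, 3 or 4 or WT replicate 2 or 3, with adjusted p up to 0.101. In the list of 18 matrix metalloproteases and inhibitors the 1 called gene was Anpep, and the median was -0.09, or -0.05 against WT libraries 5 to 7 alone. Of the 18, 6 had an unadjusted p under 0.05, 5 of them lower. Timp2, a metalloprotease inhibitor, was at 17.5 to 20.6 FPKM in Adamts16+/H355Q and 20.9 to 26.8 FPKM in WT, and Mmp14, a membrane-bound metalloprotease, was at 11.3 to 12.2 FPKM in Adamts16+/H355Q and 12.6 to 17.4 FPKM in WT. Neither was called against WT (limma adjusted p = 0.0762 and 0.0876).

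Creb3l1 encodes a membrane-bound transcription factor of the endoplasmic reticulum that in mouse bone activates collagen I transcription. It was at 5.84, 5.06, 5.10 and 4.21 FPKM in Adamts16+/H355Q, at 7.48 to 9.86 FPKM in Adamts16+/-, and at 6.53 to 9.94 FPKM with a median of 8.32 FPKM in WT. The Adamts16+/H355Q libraries lay below all libraries of both other genotypes. The log2 difference was -0.64 ± 0.11 from WT (SE; limma adjusted p = 0.0227) and -0.70 from Adamts16+/- (limma adjusted p = 0.0102). Without Adamts16+/H355Q replicate 2, 3 or 4 or WT replicate 2 or 3 it was not called, with adjusted p up to 0.129. Creb3l1 was the 1 called gene of 29 that act in collagen folding, secretion and cross-linking, whose median was -0.05. Of the 29, 7 had an unadjusted p under 0.05, 6 of them lower. Pcolce, an enhancer of procollagen processing, was at 8.32 to 10.2 FPKM in Adamts16+/H355Q and 10.8 to 14.8 FPKM in WT (limma adjusted p = 0.0758).

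Several membrane proteins and enzymes of signalling also fell. Susd2, which encodes a membrane protein with a sushi domain, was at 2.69, 2.63, 2.74 and 2.20 FPKM in Adamts16+/H355Q, at 2.80 to 3.35 FPKM in Adamts16+/-, and at 3.69 to 4.89 FPKM with a median of 4.03 FPKM in WT. The Adamts16+/- libraries fell between the other groups, with no overlap on either side. Susd2 had a log2 difference of -0.59 ± 0.08 (SE; limma adjusted p = 0.00314) and was called in every fit without 1 library and against WT libraries 5 to 7 alone (limma adjusted p = 0.0304).

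Plpp3, a membrane phosphatase that degrades lysophosphatidic acid, was at 7.12, 7.18, 8.15 and 6.51 FPKM in Adamts16+/H355Q, at 9.95 to 12.1 FPKM in Adamts16+/-, and at 8.98 to 11.5 FPKM with a median of 10.6 FPKM in WT. All Adamts16+/H355Q libraries were lower than all others, with a log2 difference from WT of -0.51 ± 0.07 (SE; limma adjusted p = 0.0069). Efnb1 encodes ephrin-B1, a membrane ligand for Eph receptors. It was at 7.36, 6.58, 7.70 and 6.48 FPKM in Adamts16+/H355Q, at 10 to 11.3 FPKM in Adamts16+/-, and at 8.39 to 11.2 FPKM with a median of 9.19 FPKM in WT. The groups were again separate, but the call against WT (-0.39, limma adjusted p = 0.0458) held in 2 of the 15 fits without 1 library, those without WT replicate 5 or 7, with adjusted p up to 0.202 in the others. Plpp3 was called in all 15.

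Vwf encodes von Willebrand factor, a clotting protein made by endothelium and megakaryocytes. It was at 1.62, 1.63, 1.44 and 1.49 FPKM in Adamts16+/H355Q, at 1.90 to 2.15 FPKM in Adamts16+/-, and at 2 to 2.97 FPKM with a median of 2.31 FPKM in WT. No Adamts16+/H355Q library reached the lowest library of either other genotype, and the log2 difference from WT was -0.49 ± 0.08 (SE; limma adjusted p = 0.011). Leaving out Adamts16+/H355Q replicate 3 or 4 ended the call (adjusted p up to 0.0589). Vwf was the 1 called gene of 20 endothelial and endocardial markers, of which 17 were negative, with a median of -0.15, or -0.05 against WT libraries 5 to 7 alone. Of the 20, 7 had an unadjusted p under 0.05, all lower. The summed level of all 20 markers was 242 to 258 FPKM in Adamts16+/H355Q, 308 to 312 FPKM in Adamts16+/- and, in WT, 316 to 331 FPKM in libraries 1 to 4 but 233 to 290 FPKM in libraries 5 to 7. Its part in the difference of Vwf was not tested. Cdh5, the cadherin of endothelial junctions, was at 31.5 to 35.3 FPKM in Adamts16+/H355Q and 28.5 to 66.0 FPKM in WT (limma adjusted p = 0.178).

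The other named lower genes were Fmo2, Lmntd1, Mospd3, Camk1d, Wnk2, Lad1 and Rfxank. Fmo2, a flavin-containing monooxygenase, was at 2.39, 2.31, 1.89 and 1.37 FPKM in Adamts16+/H355Q, at 1.57 to 2.05 FPKM in Adamts16+/-, and at 2.79 to 4.14 FPKM with a median of 3.86 FPKM in WT. Like Fndc1 it was below WT in both mutant genotypes (-0.72, limma adjusted p = 0.0227 for Adamts16+/H355Q; -0.84, limma adjusted p = 0.0092 for Adamts16+/-). Lmntd1, which encodes a lamin tail domain protein, was at 2.14, 2.46, 2.06 and 2.03 FPKM in Adamts16+/H355Q, at 2.33 to 3.18 FPKM in Adamts16+/-, and at 3.05 to 3.91 FPKM in WT, and fell by 0.57 on the log2 scale (limma adjusted p = 0.00647). The remaining differences ran from -0.52 (Mospd3, a membrane protein) through Camk1d and Wnk2, both protein kinases, and Lad1, which encodes a protein of the basement membrane, to -0.40 (Rfxank, a subunit of the factor that activates MHC class II promoters). Lmntd1 was called in every fit without 1 library. Fmo2 lost its call without Adamts16+/H355Q replicate 3 or 4 or WT replicate 2 (adjusted p up to 0.103), and Lad1 without Adamts16+/H355Q replicate 3 or 4 (adjusted p up to 0.0769). Wnk2 lost it without Adamts16+/H355Q replicate 1, 3 or 4 or WT replicate 2 or 3 (adjusted p up to 0.129), and Rfxank without those libraries or WT replicate 1 or 5 (adjusted p up to 0.145). Mospd3 kept its call in 3 of the 15 fits, those without Adamts16+/H355Q replicate 1 or WT replicate 1 or 7, and Camk1d in 3, those without Adamts16+/H355Q replicate 2 or WT replicate 6 or 7, with adjusted p up to 0.188 in the others. A further 9 protein-coding genes fell outside the naming rule and are listed after their values were seen: Sbk3, Pear1, Pxmp4, Arhgap24, Fam102a, Kiz, Usp10, Adgrd1 and Vasn, all lower, from -0.64 (Adgrd1) to -0.27 (Vasn). Adgrd1, with means of 0.349 FPKM in Adamts16+/H355Q and 0.395 FPKM in Adamts16+/-, passed the filter only through WT (0.828 FPKM). Sbk3, at a mean of 0.340 FPKM in Adamts16+/H355Q, passed it through the other genotypes. Of the 15 fits without 1 library, Sbk3 and Pxmp4 kept their calls in 11, Pear1 in 10 and Arhgap24 in 7. Fam102a, Kiz and Adgrd1 kept theirs in 3, Vasn in 2 and Usp10 in 1.

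Hmgn2 was the largest rise among the named genes. It encodes a small nucleosome-binding protein of the high mobility group and lies at chr4:133964738-133968650 in GRCm38. Its level was 93.9, 81.2, 86.2 and 84.4 FPKM in Adamts16+/H355Q, 49.1, 53.3, 51 and 50 FPKM in Adamts16+/-, and 39.0 to 63.6 FPKM with a median of 46.8 FPKM in WT. The lowest Adamts16+/H355Q library was above the highest library of both other genotypes. The mean was 181% of WT. The log2 difference was 0.86 ± 0.10 from WT (SE; limma adjusted p = 0.00252) and 0.76 from Adamts16+/- (limma adjusted p = 0.00807), against 0.10 between Adamts16+/- and WT (limma adjusted p = 0.622). It was called in every fit that left out 1 library, and against WT libraries 5 to 7 alone (0.74, limma adjusted p = 0.0406). Of 9 high mobility group genes Hmgn2 was the 1 called and 3 had an unadjusted p under 0.05, 2 of them higher. The median of that list was 0.08 and -0.01 with quantile normalization. Its closest relative in the list, Hmgn1, was at 53.4 to 67.7 FPKM in Adamts16+/H355Q and 39.0 to 71.7 FPKM in WT (limma adjusted p = 0.196).

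The higher genes also included 3 enzymes of energy and nucleotide metabolism, Pgk1, Nadk and Prps1. Pgk1, on chromosome X, encodes the glycolytic enzyme phosphoglycerate kinase. It was at 461, 379, 411 and 432 FPKM in Adamts16+/H355Q, at 288 to 340 FPKM in Adamts16+/-, and at 290 to 356 FPKM with a median of 303 FPKM in WT. Nadk encodes the kinase that makes NADP from NAD. It was at 11.2, 11.8, 11.7 and 10.8 FPKM in Adamts16+/H355Q, at 7.49 to 8.87 FPKM in Adamts16+/-, and at 6.43 to 9.03 FPKM with a median of 8.16 FPKM in WT. For both genes all Adamts16+/H355Q libraries were above all libraries of the other genotypes. The log2 difference from WT was 0.41 ± 0.08 for Pgk1 (SE; limma adjusted p = 0.0436) and 0.48 ± 0.08 for Nadk (SE; limma adjusted p = 0.0167).

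Prps1, also on chromosome X, encodes a phosphoribosyl pyrophosphate synthetase, which starts nucleotide synthesis. It was at 25.4, 24.5, 23.9 and 27.4 FPKM in Adamts16+/H355Q, at 21.2 to 22.4 FPKM in Adamts16+/-, and at 19.3 to 22.9 FPKM with a median of 20.6 FPKM in WT. The separation was complete but small, with a log2 difference of 0.29 ± 0.06 (SE; limma adjusted p = 0.0413). Prps1 kept its call in the fits without WT replicate 6 or 7, and Pgk1 in those without Adamts16+/H355Q replicate 2 or WT replicate 6 or 7. In the other fits without 1 library adjusted p reached 0.188 for both, and Nadk lost its call without Adamts16+/H355Q replicate 3 (limma adjusted p = 0.0731). The X-linked genes Bgn, Efnb1, Pgk1 and Prps1 had adjusted p of 0.0504, 0.0656, 0.0611 and 0.0572 when the balance of Xist to Ddx3y was a covariate in limma. In the main fit they were between 0.0413 and 0.0458. Of the 57 called genes 16 lost their call with the covariate, among them these X-linked genes and Mospd3 on chromosome 5 (limma adjusted p = 0.0608). Nadk had a limma adjusted p of 0.0167 with the covariate. The part of the sex balance in these differences was not tested.

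Pla2g16, a phospholipase of fat cells, was at 11.7, 10.5, 11 and 11.1 FPKM in Adamts16+/H355Q, at 6.89 to 8.55 FPKM in Adamts16+/-, and at 6.97 to 8.43 FPKM with a median of 8.18 FPKM in WT. Tmem267, which encodes a membrane protein, was at 1.90, 1.75, 1.65 and 1.81 FPKM in Adamts16+/H355Q, at 1.34 to 1.54 FPKM in Adamts16+/-, and at 0.955 to 1.33 FPKM with a median of 1.16 FPKM in WT. Both were separate from WT and Adamts16+/- in every library, with log2 differences from WT of 0.45 ± 0.07 (SE; limma adjusted p = 0.0069) and 0.48 ± 0.07 (SE; limma adjusted p = 0.00789), and both were called in every fit without 1 library.

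**Figure D2:**
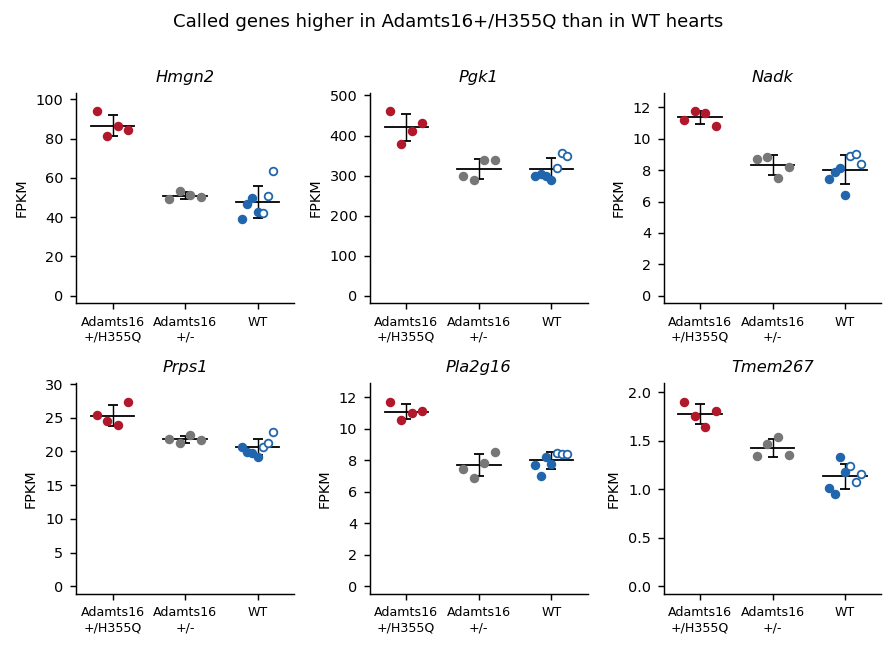
FPKM of the 6 named genes that were higher in Adamts16+/H355Q than in WT hearts, 1 point per library, with the mean (line) and SD (bars) of each genotype; open circles are WT libraries 5 to 7. The 4 Adamts16+/H355Q libraries lie above all WT libraries in each panel, for Hmgn2 at 81.2 to 93.9 against 39.0 to 63.6 FPKM.

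The glycolysis and nucleotide lists as a whole moved less than these members. Of 24 glycolysis genes Pgk1 was the 1 called, 16 were positive, 4 had an unadjusted p under 0.05 and the median was 0.08. Of 28 genes of NAD(P) and phosphoribosyl pyrophosphate metabolism Nadk and Prps1 were called, 22 were positive and the median was 0.14, or 0.03 against WT libraries 5 to 7 alone. Of the 28, 9 had an unadjusted p under 0.05, 8 of them higher. Prps2, the second synthetase of that pathway, was at 20.6 to 22.8 FPKM in Adamts16+/H355Q and 15.8 to 20.6 FPKM in WT, without overlap and without a call (limma adjusted p = 0.144).

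Genes of the ribosome and of mitochondrial respiration had positive medians with 0 members called by limma. An unadjusted p under 0.05 was found in 18.3% of all genes tested. Of 45 ribosomal protein genes 42 were positive, with a median of 0.25 and 14 at an unadjusted p under 0.05, and of 42 nuclear oxidative phosphorylation genes 39 were positive, with a median of 0.15 and 10 at an unadjusted p under 0.05. Both medians followed the split of the WT libraries: against WT libraries 5 to 7 alone they were -0.04 and -0.08, and against WT libraries 1 to 4 alone 0.45 and 0.38. The summed ribosomal protein level was 9575 to 10870 FPKM in Adamts16+/H355Q, 7134 to 8431 FPKM in Adamts16+/- and 6826 to 12180 FPKM in WT. Among 29 genes of the unfolded protein response and heat shock, 20 were positive and the 1 called gene was Creb3l1, which was lower. An unadjusted p under 0.05 was found in 13 of the 29, of which 12 were higher. The median was 0.19, or 0.14 against WT libraries 1 to 4 alone, 0.13 against WT libraries 5 to 7 alone and 0.07 with quantile normalization. In Adamts16+/- against WT, which uses the same WT libraries, the median was 0.21 with 5 genes called higher. Hspd1, a mitochondrial chaperone, was at 190 to 228 FPKM in Adamts16+/H355Q and 158 to 187 FPKM in WT, and Ddit3, a stress-induced transcription factor, was at 9.51 to 10.5 FPKM in Adamts16+/H355Q and 6.98 to 9.14 FPKM in WT. Neither overlapped and neither was called (limma adjusted p = 0.0693 and 0.0735).

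Among atrial and muscle genes 1 was called by limma, against 0.376% of all genes tested. Of 14 atrial genes Tbx5 was the 1 called and 11 were negative, with a median of -0.19, or -0.12 against WT libraries 5 to 7 alone. An unadjusted p under 0.05 was found in 6 of the 14, 5 of them lower. Myl4, the atrial essential light chain of myosin, was at 400, 329, 411 and 391 FPKM in Adamts16+/H355Q and 251 to 337 FPKM in WT (log2 difference 0.42, limma adjusted p = 0.0739). Myh6, the alpha myosin heavy chain, was at 489, 477, 541 and 490 FPKM in Adamts16+/H355Q and 544 to 894 FPKM in WT (log2 difference -0.50, limma adjusted p = 0.0908), without overlap. Myl3, the ventricular essential light chain, was at 843 to 1033 FPKM in Adamts16+/H355Q and 437 to 836 FPKM in WT (limma adjusted p = 0.121). Of 24 sarcomere genes, 10 ventricular genes and 22 genes of calcium handling and conduction 0 were called by limma, with medians of -0.03, 0.00 and -0.03. At an unadjusted p under 0.05 there were 6, 2 and 5, against 18.3% of all genes tested.

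Of 18 epicardial and fibroblast markers 16 were negative and 0 were called by limma. An unadjusted p under 0.05 was found in 3 of them, against 18.3% of all genes tested. The median of these markers was -0.21. That median was -0.07 against WT libraries 1 to 4 alone and -0.36 against WT libraries 5 to 7 alone. Their summed level was 538 to 586 FPKM in Adamts16+/H355Q, 519 to 625 FPKM in Adamts16+/- and 547 to 835 FPKM in WT. These markers include collagen genes and Dcn, a proteoglycan of connective tissue, and their part in the differences of Col6a2, Bgn and Fndc1 was not tested. Dcn was at 36.5 to 52.7 FPKM in Adamts16+/H355Q, and in WT at 43.7 to 55.1 FPKM in libraries 1 to 4 but 63.9 to 100 FPKM in libraries 5 to 7 (limma adjusted p = 0.274). Among 15 valve mesenchyme markers, 27 genes linked to the aortic valve and 21 integrin subunits 0 were called by limma, with medians of 0.03, -0.06 and 0.02. At an unadjusted p under 0.05 there were 2, 5 and 0, against 18.3% of all genes tested.

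**Figure D3:**
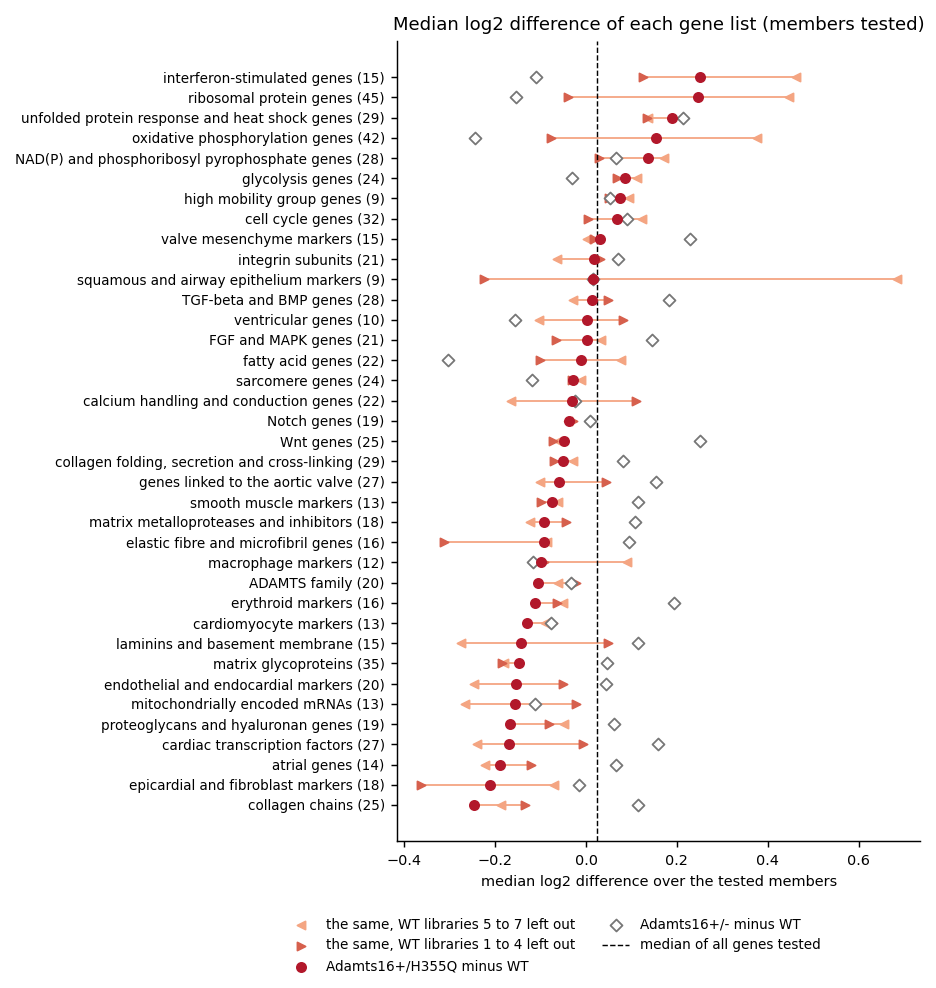
Median log2 difference over the tested members of each gene list with 9 or more members tested (number in parentheses) for Adamts16+/H355Q minus WT (filled circles) and Adamts16+/- minus WT (open diamonds), which share the WT libraries; left triangles give the Adamts16+/H355Q median against WT libraries 1 to 4 alone, right triangles against WT libraries 5 to 7 alone, and the dashed line marks the median of all genes, 0.02. Collagens stand lowest of the lists drawn at -0.25, and the ribosomal protein median of 0.25 is -0.04 against WT libraries 5 to 7 alone.

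The called genes with the largest differences lay at the distal ends of the X and Y chromosomes, where the sex chromosomes pair and copies of the same genes occur on both. From Hccs to Gm21887 on X (chrX:169250193-170019281 in GRCm38) and from Mid1-ps1 to Gm21742 on Y (chrY:90753057-90844040), 13 genes were tested, 6 were called, all higher, and 10 did not overlap between Adamts16+/H355Q and WT. Over all genes tested 0.376% were called and 2.65% did not overlap. Levels in WT were low, so the filter bears on the counts at these ends. Gm21860, with a mean of 0.477 FPKM over the other 11 libraries, passed it only through the Adamts16+/H355Q libraries, and Gm21748, G530011O06Rik and Gm15247 had WT means of 0.327, 0.322 and 0.377 FPKM, under the filter, and passed through the mutant genotypes. The counts are therefore a description. With no filter Gm47283 had a limma adjusted p of 0.0505 and the other 5 were called. Over the whole chromosomes 7 of 538 genes on X (1.3%) and 3 of 11 on Y (27.3%) were called, against 0.376% of all genes tested. These counts go by annotated position and do not show transcription from Y. Adamts16+/H355Q library 2, with Ddx3y listed at 0, held the highest level of its group for each of the 3 on Y. It was at 17.8 FPKM for Gm47283, 3.48 FPKM for Gm21748 and 2.92 FPKM for Gm21860. Gm47283, on Y at chrY:90784738-90816464, was at 9.91, 17.8, 10.9 and 10.5 FPKM in Adamts16+/H355Q, at 6.21 to 11.6 FPKM in Adamts16+/-, and at 0.0180 to 3.12 FPKM with a median of 1.74 FPKM in WT. The lowest Adamts16+/H355Q library lay far above the highest WT library, with a log2 difference of 2.57 ± 0.41 (SE; limma adjusted p = 0.0112). The Adamts16+/- libraries lay above WT too, and Gm47283 was called in that comparison (limma adjusted p = 0.0146) and not between the mutant genotypes (limma adjusted p = 0.73). Against WT libraries 5 to 7 alone the difference was 2.81 (limma adjusted p = 0.0779).

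The other 5 called genes of these ends were Gm21748 (1.74) and Gm21860 (1.56) on Y and G530011O06Rik (1.59), Gm15726 (1.51) and Gm15247 (1.12) on X, given as log2 differences. Gm21748 was at 1.97, 3.48, 1.71 and 2.02 FPKM in Adamts16+/H355Q, at 0.707 to 1.20 FPKM in Adamts16+/-, and at 0.116 to 0.553 FPKM in WT. The 3 genotypes did not overlap for this gene, and its limma adjusted p of 0.000424 was the smallest of all. Mid1, the ubiquitin ligase gene that crosses the boundary of the paired region in laboratory mice, was at 2.93, 6.88, 3.43 and 1.97 FPKM in Adamts16+/H355Q, at 2.64 to 4.21 FPKM in Adamts16+/-, and at 1.27 to 1.77 FPKM in WT (log2 difference 0.98, limma adjusted p = 0.0561). Gm21887 was at 23.4 to 30.3 FPKM in Adamts16+/H355Q, at 17.7 to 40.9 FPKM in Adamts16+/-, and at 0.0341 to 8.57 FPKM in WT (limma adjusted p = 0.0717). The neighbour Hccs, further from the end, was at 6.21 to 7.11 FPKM in Adamts16+/H355Q and 5.45 to 7.23 FPKM in WT (limma adjusted p = 0.506).

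Several of these genes share sequence, which limits what their separate values mean. In an alignment of the GENCODE vM21 transcripts, Gm21748 and Gm21860 were identical over all 309 bases, and both were identical to bases 232 to 540 of the 2380-base transcript of G530011O06Rik. Gm21887 and Gm47283 were identical over 529 bases. G530011O06Rik, Gm15247 and Gm15726 also matched Mid1 on the opposite strand, over 737 bases at 100%, 112 bases at 100% and 167 bases at 96.4%. They lie within the annotated span of Mid1 (chrX:169685199-170005736). Gm47283, Gm15247 and Gm15726 matched no other called gene of these ends. The strand setting of the counting is not given in the sources used here, so reads of copies and of opposite strands cannot be told apart from these values. The start of the shared sequence is shown from Gm21748 (chrY:90838869-90839177, minus strand, first 120 bases, start codon in capitals), because the calls of Gm21748, Gm21860 and G530011O06Rik rest on transcripts that share it:
Gm21748: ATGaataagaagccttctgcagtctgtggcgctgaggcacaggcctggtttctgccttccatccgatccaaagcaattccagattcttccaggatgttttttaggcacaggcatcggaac

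These levels were also set beside the sex-linked genes of each library. Adamts16+/H355Q library 2, with Ddx3y listed at 0, held the highest Gm47283 level of its group (17.8 FPKM), and library 4, with Xist at 0.0425 FPKM, held 10.5 FPKM. With the balance of Xist to Ddx3y as a covariate, limma gave Gm47283 an adjusted p of 0.012 and Gm21748 an adjusted p of 0.000232.

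**Figure D4:**
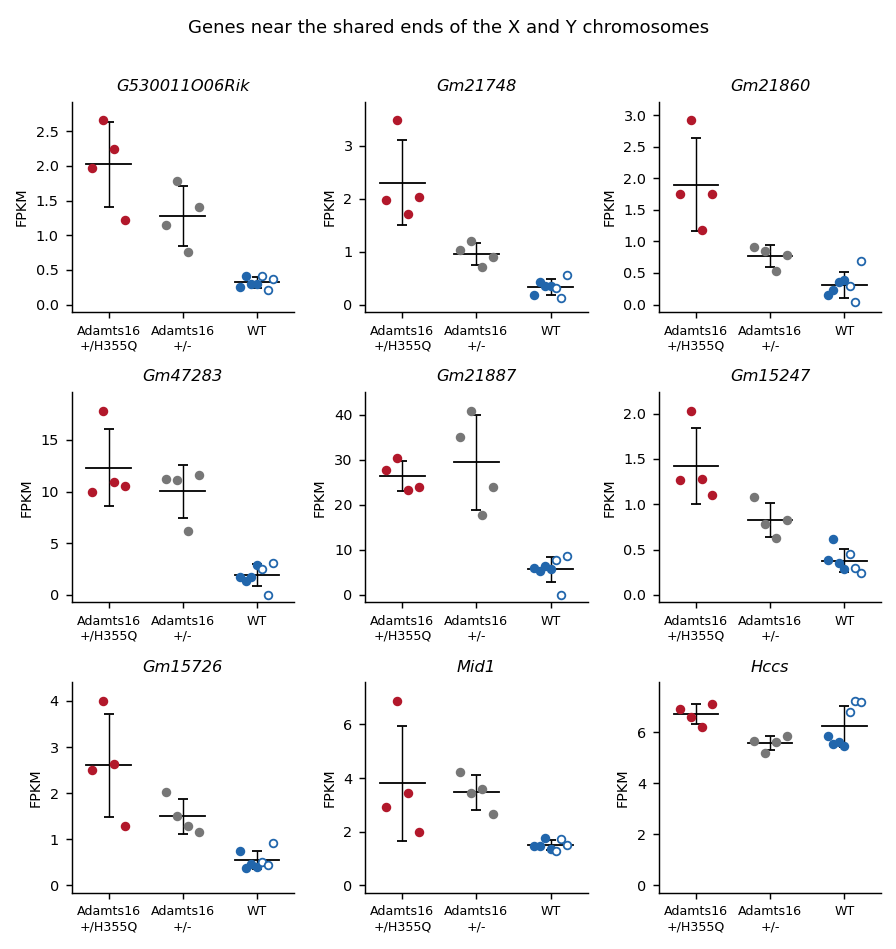
FPKM of 9 genes near the ends of X and Y, 1 point per library, with the mean (line) and SD (bars) of each genotype; open circles are WT libraries 5 to 7. The Adamts16+/H355Q libraries lie above all WT libraries in each panel except Hccs, with library 2 the highest of its group in those panels, and the Adamts16+/- libraries lie above WT too except for Hccs and Gm21860.

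Pseudogenes were a larger share of the called genes than of the genes tested. They were 15 of the 57 called genes (26.3%) and 6.95% of those tested. Of the pseudogenes tested 1.42% were called, against 0.301% of protein-coding genes. Each of the 15 matched a protein-coding transcript at 94.1% to 100% identity. Of the matching genes 0 were called by limma and 2 had an unadjusted p under 0.05, against 18.3% of all genes tested. Of the 15 pseudogenes 9 had the same sign as their match.

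Hmgb1-ps3, a processed copy of the chromatin gene Hmgb1, was at 4.15, 3.71, 3.50 and 3.50 FPKM in Adamts16+/H355Q, at 6.92 to 7.74 FPKM in Adamts16+/-, and at 5.09 to 7.93 FPKM in WT. It fell by 0.77 on the log2 scale (limma adjusted p = 0.00304), while Hmgb1, 97.2% identical over 648 aligned bases, was at 69.1 FPKM in Adamts16+/H355Q and 65.7 FPKM in WT with a difference of 0.08. Gm12254 fell by 0.68, and its match Rpl24, a ribosomal protein gene, had a difference of 0.24. Gm6180 fell by 0.42, and its match Cfl1, the actin-severing protein cofilin, had -0.01. In the other direction Pisd-ps1 rose by 1.33, and its match Pisd, a mitochondrial phospholipid enzyme, had -0.00. How reads that fit a gene and its copy equally well were assigned is not given in the sources used here, so the levels of these pseudogenes are uncertain.

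**Figure D5:**
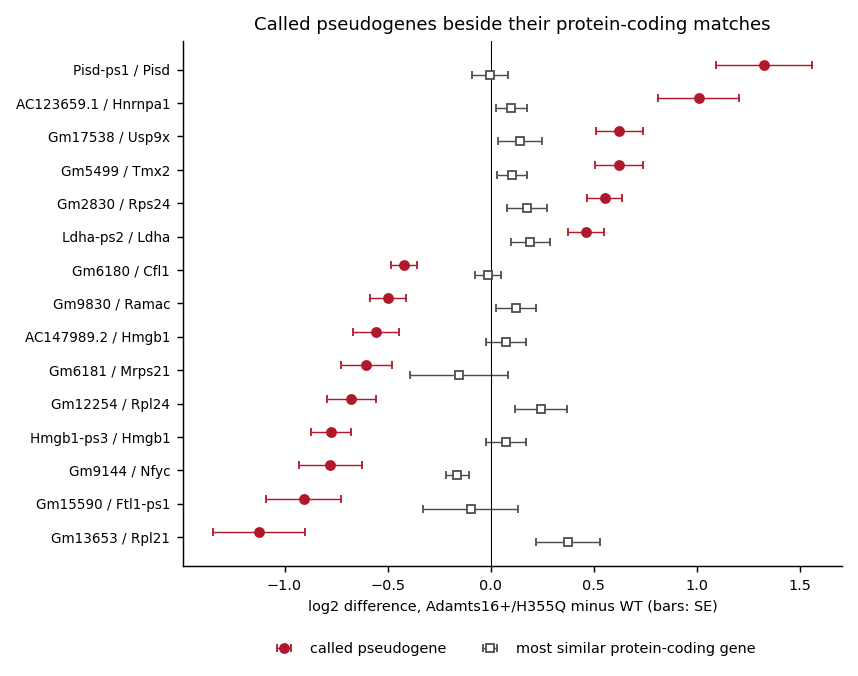
Log2 difference between Adamts16+/H355Q and WT, with its SE, for the 15 called pseudogenes (filled circles) and the protein-coding gene each is most similar to (open squares). The matches lie between -0.16 (Nfyc) and 0.37 (Rpl21), nearer to 0 than their pseudogenes.

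Around the altered gene itself, 77 genes within 5 Mb of Adamts16 on chromosome 13 were tested and 0 were called by limma. An unadjusted p under 0.05 was found in 6 of the 77, against 18.3% of all genes tested. The median log2 difference of the 77 was 0.06. The 1 gene of the 77 whose groups did not overlap, against 2.65% of all genes tested, was Irx1, an Iroquois transcription factor of the ventricular septum. It was at 1.45, 1.28, 1.60 and 0.921 FPKM in Adamts16+/H355Q, at 1.57 to 2.51 FPKM in Adamts16+/-, and at 1.76 to 3.03 FPKM in WT. The Adamts16+/H355Q libraries were all below WT, and the difference of -0.60 was not called (limma adjusted p = 0.0669).

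The filter that chose the genes had no gap at its edge. The genes just inside it were Gm45235 and Gm14412, with means of 0.500157 and 0.500249 FPKM, and those just outside were Fhad1 and Lypd2, with 0.499861 and 0.499788 FPKM.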

How the data were processed

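TRIzol was used to extract RNA, and a VAHTS Universal V6 kit to build libraries, per the labels' protocols. Tools named in the submitters' processing notes, with no role, are DESeq2, R 3.2.0, HTSeq, HISAT2 and fastp. The authors deposited FPKM values for 55335 gene identifiers. No build, annotation or strand setting is given in the sources used here. GENCODE vM21 matched 55154 identifiers. FPKM are not counts, and between 57.7% and 63.2% of low values were whole multiples of 1 fragment within 0.1 of a step, so whole reads were not recovered.

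Values were tested as log2(FPKM + 0.5) by limma (version 3.58.1, R 4.3.3), with a trend in the variance, where the mean reached 0.5 FPKM, in 1 fit of all 15 libraries with genotype as the term and Benjamini-Hochberg adjustment over 15172 genes. Fold changes on this scale understate those of low genes. Adamts16 had an exact permutation test. Copies were aligned with blastn 2.17.0. Library correlations were 0.951 to 0.986 and no libraries were identical.

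The genes named were up to 20 called genes per direction by size and with a mean of 1 FPKM or more, without pseudogenes named -ps, Rik names, clone names or Gm numbers, plus called list members, up to 3 list members with the smallest p, Fn1, Sox9, Tbx5 and Adamts16. Members of the lists, tests and naming rule were chosen with earlier results of these data known. Alternatives covered pseudocount, filter, scaling, variance, weighting, covariates, a replicate block and left-out libraries. Leaving out WT libraries 5 to 7 or 1 to 4, and testing coding genes alone, were chosen after seeing the data.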

Additional observations from a re-analysis of the deposited data

Results flagged for a closer look

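Lad1, which encodes a protein of the basement membrane, was at 0.973 FPKM in Adamts16+/H355Q replicate 2, while the other 3 libraries of that genotype lay close together with 0.828 FPKM as the nearest value. The gap to that value was 0.878 of the range of the group, above Dixon's 95% critical value for 4 samples. Of 58 combinations of a named gene and a genotype that were examined, this was the 1 found, where chance gives about 1 in 20. Lad1 was at 1.2 to 1.5 FPKM in WT, so the outlying library was still below every WT library.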

How the results depend on the processing

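Counts of called genes depended on the libraries and settings, while the sign of all 57 called genes did not. Because the 57 were selected in these same libraries, a kept sign is not further support. Against 57 in Adamts16+/H355Q and WT, the count was 24 with no filter on low values and with only these 2 genotypes fitted, 37 with protein-coding genes only, 117 with quantile normalization, 2854 with array weights, 2762 with the replicate number as a block, 3262 against WT libraries 1 to 4 alone, 20 against WT libraries 5 to 7 alone, and 21 to 1414 without 1 library (21 without Adamts16+/H355Q replicate 3 or 4, 37 without Adamts16+/- replicate 1, and 22, 25 and 1414 without WT replicate 2, 3 and 7). Against 1524 in Adamts16+/H355Q and Adamts16+/-, it was 580 with no filter, 2931 with the block, 3491 and 2614 with WT libraries 1 to 4 or 5 to 7 alone, and 285 to 2485 without 1 library. Genes without overlap, 402, came to 3787 and 1426 with those WT sets alone and to 430 to 1247 without 1 library. The Adamts16 difference of 0.0039 was -0.0685 with quantile normalization, 0.1341 and -0.1698 against WT libraries 1 to 4 or 5 to 7 alone, and -0.0257 to 0.052 without 1 library. Sox9 was at 0.0015 with array weights, 0.0323 without Adamts16+/H355Q replicate 2 (-0.147 without replicate 3, the ends of its range without 1 library) and 0.0169 against WT libraries 5 to 7 alone, where Fn1 was at 0.1071. The causes were not tested. Deviations from the group mean of Adamts16+/H355Q and WT libraries with the same replicate number correlated at -0.21, -0.10, 0.15 and 0.20. No correlations of libraries with different numbers were set beside them, so whether equal numbers pair libraries was not tested. The block fit uses only the numbers that genotypes share, so WT libraries 5 to 7 add nothing to it.

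FPKM carry no exact depth, so no counting intervals are given. Genes near 0.5 FPKM, and Adamts16 at 11 to 79 implied fragments a library, are measured with little precision. No label gives a batch, litter or sex.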

Other observations

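The lists of Wnt, Notch, TGF-beta and BMP, and FGF and MAPK genes held no called member in Adamts16+/H355Q against WT by limma. At an unadjusted p under 0.05 there were 4 of 19 Notch and 2 of 21 FGF and MAPK genes, against 18.3% of all genes tested. Of 25 Wnt pathway genes 16 were negative and 6 had an unadjusted p under 0.05, with a median of -0.05. Axin2, a feedback target of Wnt signalling, was at 0.795, 0.895, 0.839 and 1.1 FPKM in Adamts16+/H355Q, at 1.49 to 1.94 FPKM in Adamts16+/-, and at 1.11 to 1.61 FPKM in WT. Tcf7l1, a transcriptional partner of beta-catenin, was at 3.19 to 3.93 FPKM in Adamts16+/H355Q, 5.05 to 6.90 FPKM in Adamts16+/- and 4.07 to 6.16 FPKM in WT. In both genes the Adamts16+/H355Q libraries lay below all others, with limma adjusted p of 0.0735 and 0.0655 against WT and 0.00911 and 0.00807 against Adamts16+/-. Of 28 TGF-beta and BMP genes 14 were negative and 8 had an unadjusted p under 0.05, with a median of 0.01. Bmp6, a ligand of the endocardium and cushions, was at 2.42 to 3.16 FPKM in Adamts16+/H355Q and 3.18 to 3.94 FPKM in WT, without overlap and without a call (limma adjusted p = 0.0711). Lfng, which modifies Notch receptors with sugars, was at 0.921 to 1.40 FPKM in Adamts16+/H355Q and 1.54 to 2.53 FPKM in WT (limma adjusted p = 0.09).

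Interferon-stimulated genes varied within the Adamts16+/H355Q group. Of 15 tested, 14 were positive, 0 were called and 5 had an unadjusted p under 0.05, against 18.3% of all genes tested. The median of these genes was 0.25, or 0.46 against WT libraries 1 to 4 alone and 0.12 against WT libraries 5 to 7 alone. Their summed level was 76.2, 113, 69.1 and 65.7 FPKM in Adamts16+/H355Q libraries 1 to 4 and 50.2 to 94.9 FPKM in WT. Isg15, a ubiquitin-like protein induced by interferon, was at 3.01, 5.38, 3.50 and 1.21 FPKM in Adamts16+/H355Q and 1.03 to 2.48 FPKM in WT (limma adjusted p = 0.164). Library 2, the highest for these genes, also held the highest thymus marker sum of its group (25.8 FPKM) and the highest sum of neural crest, Schwann and neuron markers of all libraries (54.0 FPKM, against 16.9 to 27.9 FPKM in WT). The part of those tissues in the interferon values was not tested.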
